A study of Mus musculus with 2 samples.

Results

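The genes described here encode hepatocyte identity transcription factors, the DNA-binding proteins that together set up and hold the expression programme of liver parenchymal cells. The group held 9 genes, Hnf4a, Foxa1, Foxa2, Foxa3, Cebpa, Cebpb, Onecut1, Onecut2 and Prox1. They were chosen by name and found by their symbols among the 32285 gene identifiers of the count matrices, and every symbol matched a single identifier. HNF4A is a nuclear receptor that binds the promoters and enhancers of most genes typical of hepatocytes. The FOXA proteins are pioneer factors that can bind DNA wrapped in nucleosomes, and the C/EBP proteins are leucine zipper factors that tie hepatocyte genes to fasting, growth and inflammation. ONECUT factors and PROX1 act early in liver development, and in the adult liver all of these factors bind near each other's genes and near many of the same targets.

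Frozen liver sections of 10 µm from male C57BL/6J mice were measured with 10x Genomics Visium, in which RNA is captured on printed, barcoded spots and each molecule is counted through its unique molecular identifier (UMI). The mice were 5 weeks old at purchase and were acclimated for 1 week. They were then kept for 14 weeks either on the control diet (NCD) or on a diet named as 60% high-fat (HFD). In the 8 weeks that followed, both groups were given a daily dose of distilled water by mouth, the control for the study's drug treatments. Whether the diets went on during these weeks is not stated in the sources used here. The study set up this comparison as a model of non-alcoholic fatty liver disease. Each diet was represented by 1 section from 1 mouse, so diet, animal, section and capture area, the printed area of spots that held a section, cannot be told apart. No difference between the sections has a replicate check, and the 95% intervals below cover counting error only. The terms NCD slide and HFD slide name the capture area of each section and do not mean that the sections lay on separate slides.

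Over tissue, 29037988 UMIs were counted in 3692 spots of the NCD section, where the median spot held 4187.5, and 72118803 UMIs in 3594 spots of the HFD section, where it held 18549. Mitochondrial genes took 8.51% of NCD and 5.64% of HFD UMIs. The sections shared 3173 spot barcodes, since every slide of this kind carries the same printed barcodes, and a shared barcode is a position on the slide and not a shared cell. On the NCD slide the spots outside the tissue were nearly as deep as those over it. There, 19.1% of the UMIs lay in 1300 spots off tissue, whose median was 3383, and a tissue spot was the deeper in 51.6% of all pairs. The same share was 99.2% on the HFD slide, where 2.93% of the UMIs lay in 1398 spots off tissue. The 9 genes summed to 625 UMIs in every 1000000 (CPM; 95% Poisson interval 606 to 644) in the NCD spots off tissue and to 605 CPM (596 to 614) in those over tissue. The corresponding sums were 679 CPM (645 to 715) and 794 CPM (788 to 801) on the HFD slide. RNA outside the tissue of the NCD slide therefore carried these transcripts at nearly the level of the tissue, and the ratios of the genes called between the sections are also given from deeper spots. The lobule values, shares of spots and comparisons around other cell types were not repeated at that depth.

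The labels name the tissue as liver but also carry a blood stem cell as the cell line and an immune cell as the cell type. Hepatocyte markers matched the tissue label. The 6 genes of the hepatocyte list summed to 109207 CPM in the NCD section and 127157 CPM in the HFD section, with Alb the gene of highest count in both. The 8 blood stem cell markers summed to 7.40 CPM and 11.01 CPM, led by Kit in the NCD section and Cd34 in the HFD section. The 7 leukocyte markers summed to 27.0 CPM and 24.4 CPM. A spot is a small region that can hold several cells of different types, so the values below belong to liver tissue and not to sorted hepatocytes.

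Between the sections, 1 of the 9 genes rose and 3 fell, while 5 did neither. A gene was counted as higher or lower when its CPM differed by 1.5-fold or more and the exact conditional binomial interval of the ratio left out no difference. Cebpb rose, and Foxa1, Onecut1 and Prox1 fell. Tested were 11913 genes whose UMIs summed to 100 or more, of which 25.3% were higher in the HFD section by the same rule and 5.01% were lower. The gene group thus lay below all genes in its share of higher calls and above all genes in its share of lower calls, which with 9 genes is a description. The median log2 ratio of HFD to NCD was -0.17 over the 9 genes and 0.24 over all genes tested, and each log2 ratio below is followed, where it bears on the reading, by its value relative to that shift. The median of the 9 genes was negative under all 13 alternatives run but came near 0 in some, at -0.020 in spots with at least 10000 UMIs and -0.047 with shares of spots at 1000 UMIs, while Cebpa, 1 of the genes near 0, kept its sign in 10 of the 13. In tissue, fewer cells that express a gene and less of its RNA per cell cannot be told apart.

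Hnf4a (ENSMUSG00000017950), the nuclear receptor gene, lies on chr2:163506808-163572910, plus strand, with 5 annotated transcripts of up to 10 exons. Its level was 153 CPM (149 to 158, 4447 UMIs) in the NCD section and 187 CPM (184 to 191, 13514 UMIs) in the HFD section. The intervals did not overlap, but the log2 ratio of 0.29 (0.24 to 0.34) lay 0.05 above the shift of all genes. Hnf4a therefore moved with the bulk of the transcriptome. Its RefSeq promoters start at positions 40298 bases apart, from which adult and fetal forms of the receptor are known to be made, and counts of 3′ ends do not tell which start was used. Among 12 genes known as HNF4A targets, 2 were higher, 1 was lower and 9 were neither, with a median log2 ratio of 0.07. Apoc2, an activator of lipoprotein lipase, stood at 448 CPM in the NCD section and 1891 CPM in the HFD section, a log2 ratio of 2.08. Ttr, the thyroxine carrier transthyretin, had a log2 ratio of 0.62, or 0.38 relative to all genes, which is under 1.5-fold. Relative to all genes, 1 of these 12 targets was higher and 3 were lower. Slco1a1, an organic anion transporter of the hepatocyte membrane, fell from 3714 UMIs to 14 UMIs, or by a log2 ratio of -9.36 (-10.24 to -8.62). The lipoprotein genes Apob and Mttp of the same list had log2 ratios of 0.09 and 0.04, both below the shift of all genes.

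The FOXA genes moved apart from each other. Foxa1 (ENSMUSG00000035451), on chr12:57540628-57546916 of the minus strand, stood at 10.6 CPM (9.49 to 11.9, 309 UMIs) in the NCD section and 5.07 CPM (4.57 to 5.62, 366 UMIs) in the HFD section. It was thus 2.10-fold lower in the HFD section, with a log2 ratio of -1.07 (-1.29 to -0.85), or -1.31 relative to all genes. Foxa2 (ENSMUSG00000037025), on chr2:148042877-148046969 of the minus strand and known for its part in bile acid handling and fasting metabolism, was measured at 23.8 CPM (22.0 to 25.6) and 20.6 CPM (19.6 to 21.7). Its log2 ratio was -0.20 (-0.34 to -0.07) and did not reach 1.5-fold. Foxa3 (ENSMUSG00000040891), on chr7:19013284-19023538 of the minus strand and known for its binding at genes of glucose metabolism, was measured at 24.8 CPM (23.0 to 26.7) and 34.6 CPM (33.3 to 36.0). Its ratio was 1.40-fold, with a log2 ratio of 0.48 (0.36 to 0.60), and so stayed under the 1.5-fold limit. After subtracting the shift of all genes, Foxa2 stood at -0.45 and Foxa3 at 0.24. The intervals of the 3 log2 ratios did not overlap, so the sections differed in the proportions of the FOXA transcripts beyond counting error. Among 6 genes known as FOXA targets, 1 was higher, Ttr, which is also counted among the HNF4A targets, and 5 were neither, while relative to all genes none was higher and 1 was lower. The median log2 ratio of these 6 genes was 0.14, and it lay below that of all genes. Tat, an enzyme of tyrosine breakdown, had a log2 ratio of 0.29 and Alb one of 0.05.

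The C/EBP genes also differed. Cebpa (ENSMUSG00000034957), which encodes the factor known for restraining hepatocyte proliferation and for driving genes of glucose production, lies on chr7:35119293-35121928, plus strand. It stood at 138 CPM (134 to 142) in the NCD section and 145 CPM (142 to 148) in the HFD section. Its log2 ratio of 0.07 (0.02 to 0.12) turned to -0.17 relative to all genes, so no direction is given for it. Cebpb (ENSMUSG00000056501), a gene of a single exon on chr2:167688915-167690418, plus strand, encodes a factor known from the acute phase response and from liver regeneration. Its level was 188 CPM (183 to 193, 5468 UMIs) in the NCD section and 354 CPM (349 to 358, 25496 UMIs) in the HFD section. The HFD section was therefore 1.88-fold higher, with a log2 ratio of 0.91 (0.87 to 0.95) and of 0.67 relative to all genes.

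Known targets of the C/EBP factors did not move as a single block. Of 5 genes known as C/EBPα targets, none was higher and 1 was lower, with a median log2 ratio of 0.18. The lower gene was Cps1, the entry enzyme of the urea cycle, at 1841 CPM and 974 CPM with a log2 ratio of -0.92. The lists share some genes: Ttr stands in those of HNF4A, FOXA and ONECUT or PROX1 targets and of hepatocyte markers, Pck1, Tat and Cps1 in more than 1, and Sox9 among transcription factors and bile duct markers. Of 7 acute phase genes known to respond to C/EBPβ, 5 were higher and 2 were neither, with a median log2 ratio of 2.31. Lcn2, an iron-siderophore binding protein, stood at 7.65 CPM in the NCD section and 169 CPM in the HFD section, a log2 ratio of 4.46. The serum amyloid genes Saa2 and Saa1 had log2 ratios of 2.66 and 2.31, Orm2 one of 2.42 and haptoglobin, Hp, one of 1.39. The remaining genes of the list, Orm1 and Crp, had log2 ratios of 0.11 and 0.05. A list of 10 further genes held other leucine zipper factors and Cebpz, which carries the C/EBP name but has no leucine zipper. Of these 10, 5 were higher, none was lower and 5, Cebpz among them at 0.08, were neither, with a median of 0.52. Ddit3, a stress-induced C/EBP relative, had the largest log2 ratio of this list at 2.18, from 7.20 CPM to 32.6 CPM. Dbp, an output factor of the circadian clock, followed at 1.59, ahead of Cebpe at 1.56, Cebpd at 1.01 and Cebpg at 0.62, of which Cebpg, at 0.37 relative to all genes, was then under 1.5-fold.

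Of the ONECUT and PROX1 genes, Onecut1 and Prox1 fell and Onecut2 did not. Onecut1 (ENSMUSG00000043013), also known as HNF6 and expressed in hepatocytes and bile duct cells, lies on chr9:74861921-74891781, plus strand. It was measured at 4.30 CPM (3.58 to 5.13, 125 UMIs) in the NCD section and 1.303 CPM (1.05 to 1.60, 94 UMIs) in the HFD section. The HFD section was 3.30-fold lower, and this log2 ratio of -1.72 (-2.13 to -1.33) came from fewer UMIs than that of any other member. Onecut2 (ENSMUSG00000045991), its paralog on chromosome 18 between 64340020 and 64400987, plus strand, was measured at 31.5 CPM (29.5 to 33.6) and 28.0 CPM (26.8 to 29.2). Its log2 ratio of -0.17 (-0.29 to -0.06) was under the limit, so the paralogs differed by more than their intervals in how far they stood apart between the sections. Prox1 (ENSMUSG00000010175), on chr1:190118035-190170714 of the minus strand, encodes a homeobox protein that acts in hepatocytes as a co-repressor of nuclear receptors and that also marks lymphatic endothelium. It stood at 30.1 CPM (28.2 to 32.2, 875 UMIs) in the NCD section and 18.97 CPM (17.98 to 20.001, 1368 UMIs) in the HFD section. This was a 1.59-fold lower level, with a log2 ratio of -0.67 (-0.79 to -0.54), or -0.91 relative to all genes. Levels of the 9 genes are not compared with each other, because 3′ UMI counts are not divided by transcript length and capture differs between genes.

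Among 6 genes known as ONECUT or PROX1 targets, 3 were higher and 3 were neither, with a median log2 ratio of 0.34. Slc2a2, the hepatocyte glucose transporter, had a log2 ratio of 0.75, and Ttr is counted here as well. Relative to all genes, 1 of these 6 was higher and 2 were lower, and Slc2a2, at 0.50, was neither. Cyp7a1, the rate-limiting enzyme of bile acid synthesis and a gene that PROX1 is known to repress, had a log2 ratio of -0.44 (-0.54 to -0.35) and did not reach 1.5-fold. Relative to all genes it passed that limit and was among the 2 lower genes.

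**Figure D1:**
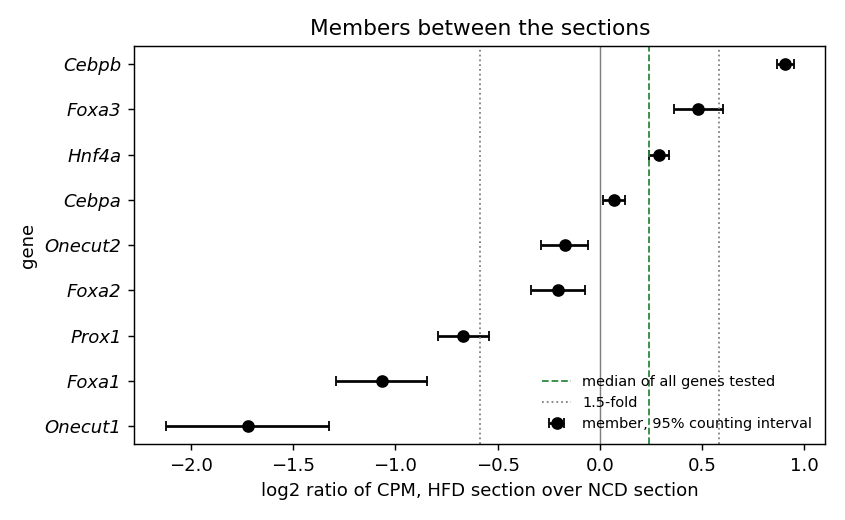
Log2 ratio of CPM, HFD section over NCD section, for each of the 9 genes, with points for the ratio and bars for its 95% counting interval. The dashed line marks the median of all genes tested, 0.24, the dotted lines mark 1.5-fold, and only Cebpb lies beyond the upper dotted line while Prox1, Foxa1 and Onecut1 lie beyond the lower.

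The 4 calls between the sections were also made from other choices of spots. Spots with at least 10000 UMIs, a limit chosen after the data were seen, gave log2 ratios of 0.95 for Cebpb, -1.04 for Foxa1, -1.41 for Onecut1 and -0.67 for Prox1. Adding the spots off tissue, again from 1000 UMIs upward, gave 0.92, -1.09, -1.66 and -0.77 for the same genes. Both settings again counted 1 gene as higher and 3 as lower.

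The wider set of liver transcription factors gives a frame for these values. Of 24 other factors known from hepatocytes, 5 were higher, 3 were lower and 16 were neither, with a median log2 ratio of 0.18. The higher ones were Gata6 at 1.04, the glucocorticoid-responsive factor Klf15 at 1.00, the bile duct factor Sox9 at 0.86, the carbohydrate response factor Mlxipl at 0.69 and the secretory stress factor Xbp1 at 0.67. Hhex fell by 1.66 on the log2 scale, from 129 CPM to 40.6 CPM, the pericentral factor Tbx3 by 1.26 and Nr2f2 by 1.12. Relative to all genes, Mlxipl at 0.44 and Xbp1 at 0.43 were under 1.5-fold and 4 of the 24 were lower. Hhex, Tbx3 and Nr2f2 fell further than Prox1, and the intervals of Hhex (-1.73 to -1.59) and Onecut1 overlapped. Of 12 cofactors and regulators of these factors, 2 were higher, none was lower and 10 were neither, with a median of 0.10. Trib1, a pseudokinase known to target C/EBPα for degradation, had a log2 ratio of 0.86, and the coactivator Ppargc1a, at 3.995 CPM and 6.004 CPM, had one of 0.59 (0.29 to 0.90), or 0.34 relative to all genes. Nr0b2, the bile acid-induced partner that represses HNF4A, stood at 58.9 CPM and 58.0 CPM, a log2 ratio of -0.02. Genes of the fetal liver stayed near the limit of counting. The 6 genes of that list summed to 1.83 CPM and 3.80 CPM, 3 of them had 0 UMIs in the NCD section, and 2 reached 100 UMIs over both sections. Of these, Afp had 30 UMIs and 85 UMIs and a log2 ratio of 0.19 (-0.43 to 0.84). H19 had 0 UMIs in the NCD section and 123 UMIs in the HFD section, which is at least 16.5-fold higher when the NCD section is set to 3 UMIs. With H19 at that bound, the median log2 ratio of these genes was 2.12.

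A pair of the genes have a named transcript on the opposite strand, and whether the counting used strand is not given in the sources used here. Hnf4aos was measured at 11.4 CPM (10.2 to 12.7) in NCD and 3.18 CPM (2.78 to 3.61) in HFD tissue, which gives -1.84 (-2.09 to -1.59) on the log2 scale. Its exons share 0 bases with those of Hnf4a, so the sense and antisense values could be counted apart, and the antisense transcript was lower past 1.5-fold while Hnf4a was not called. Prox1os was measured at 14.6 CPM (13.3 to 16.1) and 10.4 CPM (9.64 to 11.1), or -0.50 (-0.67 to -0.32) on the log2 scale. It shares 133 exon bases with Prox1, so without strand reads from the shared bases cannot be told apart. The antisense values were added after the data were seen.

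The share of spots with at least 1 UMI was compared after drawing every spot down to 1000 UMIs at random, since the HFD section was the deeper. This left out 840 NCD spots and 4 HFD spots. Cebpb was found in 18.1% (16.7 to 19.6) of NCD spots and 31.7% (30.2 to 33.2) of HFD spots, against 54.7% and 97.8% before drawing down. Foxa1 was found in 1.47% (1.06 to 1.99) and 0.557% (0.341 to 0.859), and for Cebpb and Foxa1 the intervals did not overlap, so both kept at equal depth the order that their CPM gave. For Prox1 the shares were 3.23% (2.608 to 3.94) and 2.09% (1.65 to 2.612), and for Onecut1 they were 0.596% (0.348 to 0.953) and 0.223% (0.0963 to 0.439). Both pairs of intervals overlapped, that of Prox1 at its edge, so these shares do not tell the sections apart by their intervals. At 3000 UMIs, a depth that 1585 spots of the NCD section and 56 of the HFD section did not reach, the intervals lay apart for Prox1, at 8.54% (7.38 to 9.82) and 5.94% (5.18 to 6.77), and for Onecut1, at 1.19% (0.769 to 1.75) and 0.424% (0.237 to 0.698). Before drawing down, Foxa1 was in 7.69% and 9.35% of spots, Prox1 in 18.6% and 29.7%, and Onecut1 in 3.22% and 2.53%, so the shares of Foxa1 and Prox1 ran in the opposite order at unequal depth. Hnf4a was found in 16.8% and 17.6% of spots at 1000 UMIs and Cebpa in 13.5% and 14.01%, with overlapping intervals. Foxa3 was in 2.49% (1.95 to 3.13) and 3.65% (3.06 to 4.32). At 3000 UMIs the intervals also lay apart for Hnf4a, at 39.1% (37.0 to 41.2) and 43.4% (41.7 to 45.0). The same held for Foxa3, at 7.93% (6.81 to 9.16) and 10.3% (9.28 to 11.3). No member was confined to few spots with many molecules. The most UMIs of 1 member in 1 spot were 26, reached by Cebpb in the HFD section.

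The position of a spot in the liver lobule was read from 7 landmark genes of pericentral hepatocytes and 7 of periportal hepatocytes, none of them a member. Spots with at least 1000 UMIs were ranked within each section by the log2 ratio of the landmark sums, with 1 UMI added to each, and split into 3 groups of equal size named periportal, midlobular and pericentral. Lobule genes not used for this ranking behaved as their names say. Of 5 pericentral genes tested, 5 were higher pericentrally in each section, and of 6 periportal genes, 5 were higher periportally in each. The pericentral landmarks summed to 11089 CPM in the NCD section and 6300 CPM in the HFD section, and the periportal ones to 3813 CPM and 3359 CPM. Median UMIs per spot were 4589, 7795 and 7783 from the periportal to the pericentral group in the NCD section, and 24333, 14497 and 17322.5 in the HFD section. These depths ran in different orders, and their part in the lobule values was not tested.

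No member passed the rule in either direction along the lobule. In the NCD section, 0 of 8 tested genes were higher pericentrally, against 7.16% of 7699 genes, and 0 were higher periportally, against 2.83%. In the HFD section, 0 of 8 were higher pericentrally, against 4.79% of 10809 genes, and 0 periportally, against 4.22%. With so few genes, counts of 0 are near what these shares would give and are not a result about the group. Onecut1, with under 100 UMIs over the outer groups, was not tested. The median log2 ratio, pericentral over periportal, was 0.20 over the 8 genes and 0.13 over all genes in the NCD section, and 0.17 and 0.08 in the HFD section.

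For some members, gradients under the 1.5-fold limit could still be seen beyond counting error. Cebpb was measured at 165 CPM (156 to 174), 183 CPM (175 to 191) and 209 CPM (201 to 218) from the periportal to the pericentral group of the NCD section. In the HFD section it was measured at 306 CPM (300.0 to 313), 376 CPM (367 to 384) and 398 CPM (390 to 407). None of these 6 intervals overlapped, the order ran toward the central vein in both sections, and the lowest HFD group lay above the highest NCD group. The log2 ratio, pericentral over periportal, was 0.35 (0.24 to 0.45) in the NCD section and 0.38 (0.34 to 0.42) in the HFD section, or 0.22 and 0.30 relative to the median slope of all genes. Over finer layers of 5 equal groups, Cebpb ran from 170.0 CPM in the layer nearest the portal side to 217 CPM in the layer nearest the central vein of the NCD section, with the lowest value, 164 CPM, in the second layer. The corresponding HFD layers ran from 292 CPM to 412 CPM and rose at each step, although the intervals of the midmost layer and the next toward the central vein overlapped.

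The remaining members are given in turn. Onecut2 had log2 ratios of 0.31 (0.05 to 0.56) and 0.29 (0.14 to 0.45) in the NCD and HFD sections, both toward the central side. Its NCD value was 0.18 relative to the median slope of all genes and 0.13 as a mean of CPM per spot. Foxa1 was measured at 8.74 CPM, 10.4 CPM and 12.3 CPM in the NCD groups and 4.56 CPM, 5.25 CPM and 5.63 CPM in the HFD groups. Its log2 ratio was 0.50 (0.06 to 0.95) in the NCD section and 0.30 (-0.06 to 0.67) in the HFD section, so only the first left out no difference. Using the outer layers of 5 groups in place of 3, the NCD value of Foxa1 was 0.99 and passed the 1.5-fold limit, but it was 0.34 as a mean of CPM per spot and 0.37 relative to the median slope of all genes. Foxa2 had log2 ratios of 0.22 (-0.07 to 0.51) and 0.25 (0.07 to 0.42). Foxa3 was the only member with a periportal slope whose interval left out no difference, and this held for the HFD section, at -0.30 (-0.44 to -0.16), and not for the NCD section, at -0.02 (-0.30 to 0.26). The difference between the sections in these slopes was not tested. Hnf4a, with -0.11 (-0.22 to 0.00) and 0.00 (-0.06 to 0.06), and Cebpa, with -0.06 (-0.17 to 0.06) and 0.09 (0.02 to 0.16), were nearly flat across the lobule in both sections. Prox1 had log2 ratios of 0.19 (-0.06 to 0.44) and 0.00.

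**Figure D2:**
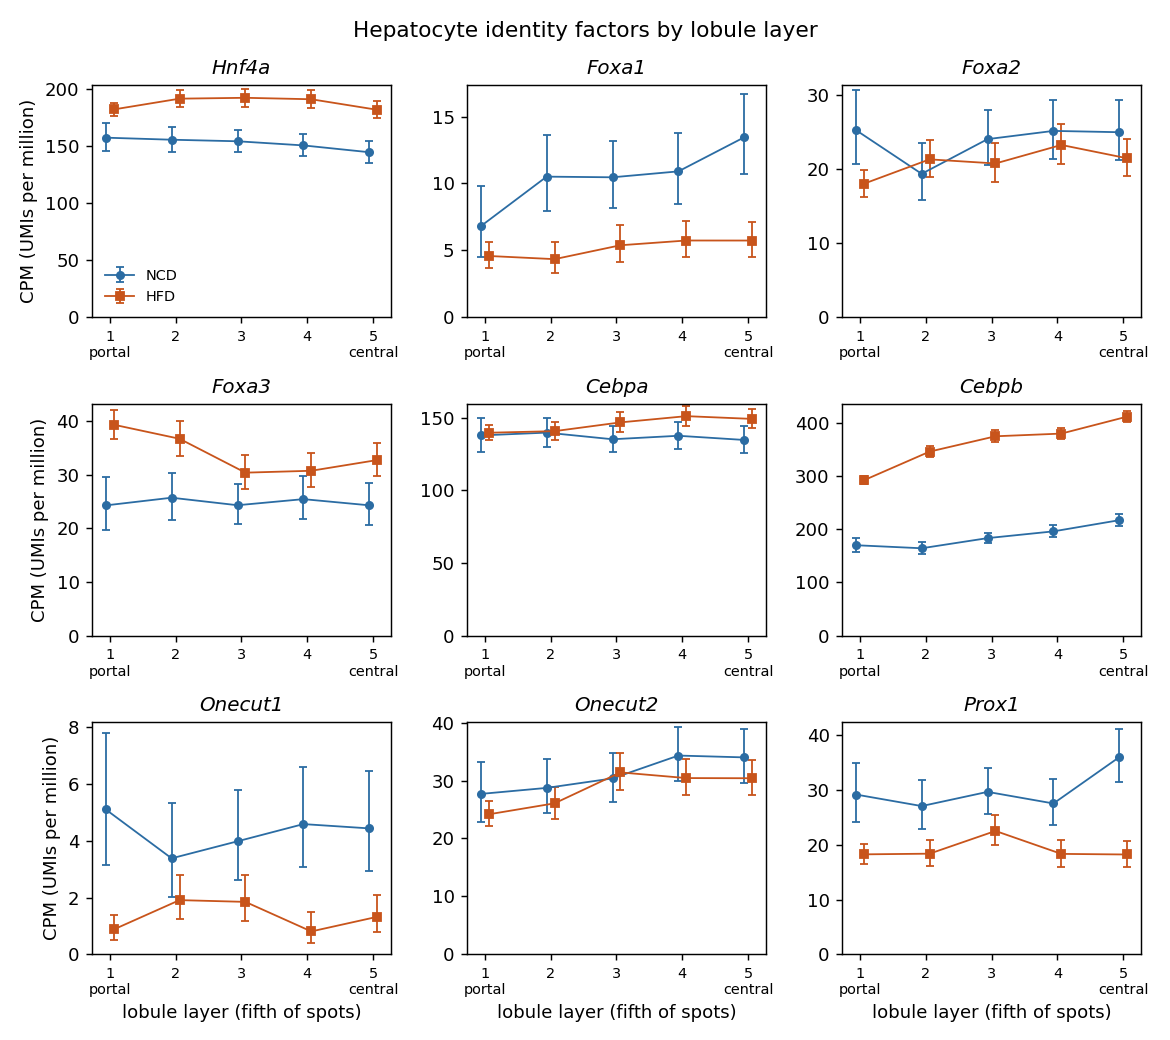
CPM of each of the 9 genes in 5 lobule layers of equal spot number, from the portal side (1) to the central vein (5), with 95% Poisson intervals, for the NCD section (circles) and the HFD section (squares). Cebpb lies higher in the HFD section and Foxa1 and Prox1 lie lower in all 5 layers, while Hnf4a and Cebpa are nearly flat.

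The direction of the 4 differences was the same within each lobule group. Cebpb had log2 ratios of HFD to NCD of 0.89, 1.04 and 0.93 in the periportal, midlobular and pericentral groups, where Cebpa had -0.01, 0.12 and 0.14. Foxa1 had -0.94, -0.99 and -1.13, and Onecut1 had -1.85, -1.35 and -1.93. Prox1 had -0.63 (-0.86 to -0.40), -0.48 (-0.70 to -0.27) and -0.82 (-1.03 to -0.61), and so passed the 1.5-fold limit in the outer groups and not in the midlobular group. Foxa3 had 0.61 (0.38 to 0.84), 0.41 and 0.33, and passed the limit in the periportal group alone. Whether these ratios differed between the lobule groups was not tested.

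Transcripts of other cell types differed between the sections, and their part in the values of the 9 genes was not tested. All 6 bile duct markers were higher in the HFD section, with a summed level of 50.9 CPM in the NCD section and 203 CPM in the HFD section, led by Spp1 in both. Of 6 macrophage markers 4 were higher, with sums of 249 CPM and 444 CPM, led by Cd5l in the NCD section and Lyz2 in the HFD section. Of 6 stellate cell markers 4 were higher, with sums of 239 CPM and 507 CPM, led by Dcn. Of 6 smooth muscle markers 5 were higher, with sums of 30.2 CPM and 79.2 CPM, led by Tagln. Sinusoidal endothelium had 2 of 6 markers higher and sums of 196 CPM and 270 CPM, led by Fcgr2b and Clec4g. The 3 lymphatic markers, led by Ccl21a, summed to 17.5 CPM and 16.1 CPM, a log2 ratio of -0.12 (-0.27 to 0.04), and neither of the 2 tested was called. All 4 globin genes were lower, with sums of 6676 CPM and 1246 CPM, led by Hbb-bs. The nuclear transcripts Malat1 and Neat1 summed to 151 CPM and 187 CPM, led by Malat1 in the NCD section and Neat1 in the HFD section. Of the 2, 1 was higher and 1 was neither, while relative to all genes 1 was higher and 1 was lower. No marker of these lists had 0 UMIs in either section.

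Spots rich in such transcripts were then set against all other spots of the same section. For each of 6 lists, the 5% of spots with the highest CPM of the list were taken, 143 NCD spots and 180 HFD spots. Of 102 ratios of members with enough UMIs, 2 were higher in the rich spots and 2 were lower, while over all genes 7.03% were higher and 1.81% were lower. Of the 6 lists, 5 mark other cell types and the last holds the acute phase genes, and the difference of these shares from those of all genes was not tested. Prox1 was higher in NCD spots rich in sinusoidal endothelium, at 51.2 CPM against 29.6 CPM from 22 UMIs, a log2 ratio of 0.79 (0.11 to 1.40). Foxa3 was higher in NCD spots rich in acute phase transcripts, at 41.6 CPM against 24.5 CPM from 25 UMIs, a log2 ratio of 0.77 (0.13 to 1.34). Foxa1 was lower in HFD spots rich in lymphatic markers, at 2.22 CPM against 5.19 CPM from 6 UMIs, and in those rich in smooth muscle markers, at 2.39 CPM against 5.19 CPM from 7 UMIs. The rich spots of these calls were less deep than the other spots. Their median UMIs per spot were 2334 against 7095 for sinusoidal endothelium and 2334 against 7010 for acute phase transcripts in the NCD section. In the HFD section they were 13009 against 18915 for lymphatic markers and 13902.5 against 18800.5 for smooth muscle markers. The part of depth in these ratios was not tested. All of these calls rest on few UMIs. None was called again when spots were compared within the lobule group that held the largest share of the rich ones. There, Prox1 around sinusoidal endothelium stayed at 0.73 on 7 UMIs and Foxa1 around smooth muscle markers at -0.91 on 5 UMIs, with wider intervals, while Foxa3 went to -0.26 and Foxa1 around lymphatic markers to -0.27. The comparison called Foxa2 in NCD spots rich in macrophage markers, at 54.4 CPM against 21.1 CPM from 11 UMIs. It also called Prox1 in NCD spots rich in smooth muscle markers, at 45.4 CPM against 26.9 CPM from 29 UMIs. Median UMIs per spot were 2038 against 4849 around macrophage markers and 6213 against 4364.5 around smooth muscle markers. In the HFD section the comparison within a lobule group gave -0.41 (-1.04 to 0.16) for Foxa2 and 0.52 (0.07 to 0.93) for Prox1. For macrophage markers that group was periportal in the NCD section and midlobular in the HFD section, so these 2 Foxa2 values come from different positions. Against all other HFD spots, Foxa2 around macrophage markers stood at 14.6 CPM and 20.9 CPM, or -0.52 (-0.95 to -0.12). The NCD value against all other spots was 0.52 (-0.22 to 1.17). The sign for Foxa2 thus differed between the sections, but this NCD interval included no difference, and the difference between the sections was not tested.

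Cebpb was not called higher where acute phase or macrophage transcripts were densest in the HFD section. It stood at 306 CPM (290.0 to 322) in HFD spots rich in acute phase transcripts and at 357 CPM elsewhere, a log2 ratio of -0.22 (-0.30 to -0.14). The acute phase-rich spots of that section lay mostly on the portal side, 135 of 180 in the periportal group, where Cebpb was lowest. In the NCD section the same comparison gave 225 CPM (188 to 266) and 187 CPM, a log2 ratio of 0.26 (0.01 to 0.51), and the difference between the sections was not tested. Within the lobule group that held the largest share of the rich spots, the log2 ratio was -0.06 (-0.16 to 0.03) in HFD and 0.15 (-0.33 to 0.59) in NCD tissue, so neither left out no difference. Around macrophage markers Cebpb stood at 367 CPM and 353 CPM in the HFD section, and around bile duct markers at 270 CPM (256 to 285) and 360 CPM, a log2 ratio of -0.41. Of these bile duct-rich spots 151 of 180 were periportal, and within that group the values were 263 CPM and 314 CPM, or -0.25 (-0.34 to -0.17). Foxa3 was the reverse case at the bile ducts of the HFD section, with 42.7 CPM in rich spots and 34.0 CPM elsewhere, a log2 ratio of 0.33 (0.12 to 0.53) under the 1.5-fold limit. Within the periportal group its values were 44.2 CPM and 37.5 CPM, or 0.24 (0.01 to 0.46). Onecut1, known from bile duct cells as well as hepatocytes, had 2 UMIs in the NCD spots rich in bile duct markers and 4 UMIs in the HFD ones, and no difference was detectable at this depth. Prox1 in spots rich in lymphatic markers stood at 35.6 CPM against 29.6 CPM in the NCD section and at 18.9 CPM against 18.97 CPM in the HFD section. Neither ratio left out no difference.

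Genes whose levels ran most like those of the members were sought over 10 points, the 5 layers of each section, among 3174 genes with at least 100 UMIs in every layer. Points of a section share its library, so that these correlations follow the difference between sections as well as position, and they are a description with no test. Cebpb was most like Hadh, an enzyme of fatty acid oxidation, with a Pearson r of 0.998, followed by Gps1 and Slc25a10, both at 0.995. Hnf4a was most like Ctsz at 0.987, and Npc2 had 0.986. For Cebpa the closest were Pcyt2 at 0.966, Zfyve21 at 0.960 and Fads1 at 0.955, and for Foxa3 they were Ostc at 0.974, Serping1 at 0.967 and Gss at 0.959. Prox1 was closest to Sin3b at 0.978, Usp50 at 0.963 and Uqcrc1 at 0.954, while Onecut2 was closest to 9130016M20Rik at 0.965, Gpat4 at 0.955 and Insig2 at 0.946. Foxa2 had the loosest matches, Timm13 at 0.900, Ogfod2 at 0.879 and Chchd1 at 0.874. Foxa1 and Onecut1, with as few as 28 UMIs and 10 UMIs in a layer, were under the minimum and were not compared.

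The members also differ in the sequence ahead of their starts. Promoters of 8 of the 9 genes were matched in RefSeq's table for GRCm38.p6, with 12 starts, and the 250 bases before each start were searched on both strands for short sequences chosen after the data were seen. The TATA box core TATAAA was found at Foxa2, Foxa3, Cebpa and Prox1 and in 12.4% of all 32851 promoters. TGACG, the core of the site bound by CREB and ATF proteins, was found at Cebpb and Onecut1 and in 17.8% of all promoters. The FOXA core TGTTTAC was found at Foxa1 and in 3.17% of all promoters, so a FOXA gene carried the letters bound by its own family. GTTAAT, part of the HNF1 site, was found at Hnf4a and Foxa2 and in 6.43% of all promoters, and ATTGAT, the ONECUT core, at the same pair and in 6.72%. In both genes these letters lay ahead of different starts. A member was counted when any of its starts had a match, whereas the shares are of single promoters. The HNF4 repeat CAAAGTCCA, in 0.384% of all promoters, and the C/EBP palindrome TTGCGCAA, in 0.164%, were found at no member.

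Sequences are shown for 3 of the 4 genes that passed the 1.5-fold limit between the sections, where the window lay outside annotated exons, so that the gene that rose can be set beside those that fell. They come from RefSeq, build GRCm38.p6, at chr2:167688665-167688914 of the plus strand for Cebpb, chr9:74861671-74861920 of the plus strand for Onecut1 and chr1:190170828-190171077 of the minus strand for the upstream start of Prox1. All run 5′ to 3′ toward the start, and capitals mark TGACG or its reverse CGTCA in Cebpb and Onecut1 and TTTATA, the reverse of TATAAA, in Prox1. Cebpb carried 3 matches and Onecut1 carried 1, and a relation of these letters to the levels in the sections was not tested. A match describes these letters and not a bound site.
Cebpb: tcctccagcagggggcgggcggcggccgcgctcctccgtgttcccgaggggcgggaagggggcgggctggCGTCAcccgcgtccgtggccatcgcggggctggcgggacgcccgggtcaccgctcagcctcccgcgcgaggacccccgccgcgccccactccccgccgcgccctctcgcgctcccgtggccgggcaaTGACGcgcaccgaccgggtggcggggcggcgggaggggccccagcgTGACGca
Onecut1: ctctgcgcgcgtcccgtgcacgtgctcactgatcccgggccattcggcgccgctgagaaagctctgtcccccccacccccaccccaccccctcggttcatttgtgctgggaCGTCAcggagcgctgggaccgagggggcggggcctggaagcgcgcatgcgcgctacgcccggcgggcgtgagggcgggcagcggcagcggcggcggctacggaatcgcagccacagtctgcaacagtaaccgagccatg
Prox1: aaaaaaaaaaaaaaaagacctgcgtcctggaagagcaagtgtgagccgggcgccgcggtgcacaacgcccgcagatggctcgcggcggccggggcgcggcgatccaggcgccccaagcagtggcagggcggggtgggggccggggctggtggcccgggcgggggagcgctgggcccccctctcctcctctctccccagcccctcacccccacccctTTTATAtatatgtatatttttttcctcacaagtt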

How the data were processed

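Visium libraries of 1 NCD and 1 HFD mouse liver section were analysed. The authors made the deposited UMI counts per gene and spot with Space Ranger 1.3.1 on mm10, which the submitters' processing notes name, and applied no normalization. The headers of the filtered matrices name this version and those of the raw matrices name Cell Ranger 4, with 0 UMIs differing over tissue; the annotation release is not given in the sources used here. From these counts, UMIs were summed over spots and divided by their total (CPM) with pandas 2.3.3, numpy 2.4.6 and scipy 1.17.1 under Python 3.11.15, with figures from matplotlib 3.10.9. Sums have exact Poisson intervals, shares exact Clopper-Pearson intervals and ratios exact conditional binomial intervals, all at 95%. Genes needed 100 UMIs, lobule groups used spots with at least 1000 UMIs, and random draws used seed 1. Identifiers sharing a symbol in the lists were summed. The calculations were tested on simulated data.

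The members and lists were chosen with earlier results of these data known. The genes named were all members, the lobule genes, up to 5 genes per direction and list with the largest ratios and at least 200 UMIs, and the 3 most similar genes per member; further list genes were chosen after their values were seen. Some genes that this rule names are not reported here, though list sums and counts include them. Gene positions come from GENCODE M21 on GRCm38. Alternatives changed the total, centring, weighting of spots, depth, landmarks, group widths and rich-spot rules; the limit of 10000 UMIs, member levels in spots off tissue alone, antisense partners, list calls relative to all genes and promoter letters were added after seeing the data. Images, spot coordinates and single-cell data were not used here.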

Additional observations from a re-analysis of the deposited data

Results flagged for a closer look

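No member had opposite slopes along the lobule in the NCD and HFD sections with intervals that both left out no difference, but 10 genes of the lists around them that are reported here did. The values are log2 ratios of the pericentral over the periportal group, and the difference between the sections was not tested for any of them. They are not taken relative to the median slope of all genes, 0.13 in NCD and 0.08 in HFD tissue. The NCD interval of Ttr (0.032 to 0.058) lay below that median, as did its HFD value, so relative to all genes its slopes were not opposite. The NCD intervals of Xbp1 (0.02 to 0.34) and Atf4 (0.01 to 0.39) and the HFD interval of Nr0b2 (0.05 to 0.26) included the median. These 3 values therefore give no direction beyond it. Among transcription factors and cofactors, Dbp had -0.47 in NCD and 0.65 in HFD tissue, Atf5 had -0.24 and 0.17, and Nr0b2 had -0.26 and 0.16. The opposite order was seen for Xbp1 at 0.18 and -0.11 and for Atf4 at 0.20 and -0.20. Among targets, Igfbp1, a fasting-induced binding protein of insulin-like growth factors, had 0.86 and -0.60, and Ttr had 0.045 and -0.21. The acute phase genes Orm2, Saa2 and Crp had 1.31 and -0.12, 0.37 and -0.79, and 0.21 and -0.22.

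Spots outside the tissue, which no comparison of lobule groups used, carried the 9 members at 625 CPM on the NCD slide and 679 CPM on the HFD slide, and the difference between the slides was not tested. The log2 ratio of tissue over spots off tissue left out no difference for Prox1 at -0.43 (-0.63 to -0.23) and Hnf4a at -0.17 (-0.26 to -0.07) on the NCD slide. On the HFD slide it did so for Foxa1 at 1.47 (0.10 to 3.35), Foxa2 at 0.58 (0.06 to 1.15), Cebpa at 0.50 (0.31 to 0.70) and Cebpb at 0.24 (0.13 to 0.36).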

How the results depend on the processing

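Between the sections, 13 alternatives were run for each member. Cebpb kept its direction in all 13, with log2 ratios from 0.58 to 1.04, as did Foxa1 (-1.40 to -0.94), Onecut1 (-1.99 to -1.35) and Prox1 (-0.91 to -0.48). Cebpa, at 0.07, kept its sign in 10 of 13 and was -0.17 after centring, -0.04 as a mean of CPM per spot and -0.01 in the periportal group. The number of members counted as higher, 1, became 0 with shares of spots at 3000 UMIs per spot and 2 in the periportal group alone. The number counted as lower, 3, became 1 with shares of spots at 1000 UMIs per spot and 2 both with shares at 3000 UMIs and in the midlobular group. The median of the members, -0.17, became -0.42 after centring on all genes, -0.047 with shares at 1000 UMIs, and -0.020 in spots with at least 10000 UMIs. Along the lobule, the count of 0 members higher pericentrally in the NCD section became 1, Foxa1, with Cyp2e1 and Cyp2f2 as the only landmarks and also 1 with the outer layers of 5. Around other cell types the 4 calls became 5 with the richest 2% of spots, and 2 when rich spots were compared within the lobule group holding the largest share of them. There, none of the 4 was called again, although 2 kept ratios about as large on fewer UMIs (Prox1 0.79 to 0.73, Foxa1 -1.12 to -0.91). The cause was not tested. With a minimum of 1000 UMIs per gene, 19.1% of genes were higher and 4.13% lower.

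No paired analysis was possible because each diet has 1 section. The intervals cover counting error only and say nothing of other animals. Onecut1 and Foxa1 have few UMIs. How far RNA off tissue on the NCD slide entered its tissue values was not tested.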
